A study of Mus musculus with 6 samples.

Results

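The genes described are those of IL-6 family receptors and STAT3 signaling, namely Il6ra, Il6st, Osmr, Lifr, Jak1, Jak2, Tyk2, Stat3, Socs3 and Ptpn11. They were chosen by their symbols, and all 10 were found among the 24063 genes of the count table. RNA-seq was performed on liver tumors of male C57BL/6 mice, with 3 WT libraries and 3 libraries from Nr2e3-/- mice, which lack the orphan nuclear receptor NR2E3. Mice of both genotypes received the hepatocarcinogen diethylnitrosamine (DEN, 25 mg per kg, i.p.) at 15 days of age, and the tumors were those of the 24-week time point. There were no tumors without DEN, so each value below compares genotypes within DEN-induced tumors. The knockout was carried by the whole animal and was not limited to hepatocytes, and a tumor sample holds hepatocytes together with immune, endothelial and stromal cells. The methods speak of 3 mice per genotype, but the labels do not tie each library to an animal, so the p-values measure the spread between these libraries.

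In IL-6 family signaling, a cytokine binds a receptor that contains gp130, the shared signaling chain encoded by Il6st, and kinases of the JAK family bound to the receptor phosphorylate it and STAT3. Phosphorylated STAT3 enters the nucleus and switches on target genes, among them Socs3, whose product blocks the receptor complex and so closes a negative feedback loop. In the liver this pathway drives the acute phase response and supports regeneration, and RNA levels do not show whether STAT3 was phosphorylated.

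Among the 10 genes, 6, namely Il6ra, Il6st, Osmr, Lifr, Jak1 and Stat3, were higher in every Nr2e3-/- library than in every WT library, and none of the 10 was lower in every one, where 13.9% and 12.9% of all tested genes did so. The levels of these 6 genes were between 1.31-fold (Lifr) and 3.59-fold (Osmr) of WT. Socs3, at 4.86-fold on average, was far above WT in Nr2e3-/- replicates 2 and 3 and below every WT library in replicate 1. No gene of the 10 passed an adjusted p of 0.05 with all 6 libraries, and 7 of the 10 passed it as higher when Nr2e3-/- replicate 1 was left out, as did 12.2% of the genes then tested. When any other single library was left out instead, 0 of the 10 passed.

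Depth ranged from 15376261 to 28690279 counts per library, the lowest being Nr2e3-/- replicate 1. Nr2e3 itself had 0 counts in all 6 libraries, which allows up to between 0.105 and 0.195 CPM (counts scaled to a common library total), so the genotype labels could not be checked on its RNA. Hepatocyte markers summed to between 108150 and 150687 CPM, as liver tissue does, and the 5 markers of acinar pancreas were at 0 counts. Nr2e3-/- replicate 1 was closer to the WT libraries than the other libraries of its group were. Over the log2 CPM of all tested genes its Pearson correlation with the WT libraries was 0.973 to 0.981, against 0.94995 to 0.958 for replicate 2 and 0.961 to 0.966 for replicate 3, a description across genes that are not independent. Within the Nr2e3-/- group, replicate 1 correlated at 0.952 with replicate 2 and 0.972 with replicate 3, and replicates 2 and 3 at 0.979.

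The receptor chains were described first. Il6ra, the chain that binds IL-6 and is found mainly on hepatocytes and some leukocytes, had 36.9, 40.5 and 47.0 CPM in WT replicates 1 to 3 and 78.5, 68.5 and 99.2 CPM in Nr2e3-/- replicates 1 to 3. All 3 Nr2e3-/- libraries lay above all WT libraries, replicate 1 included. The group means were 41.5 ± 5.11 and 82.1 ± 15.7 CPM (SD, n = 3 each), a log2 fold change of 0.98 (SE 0.17) with an adjusted p of 0.0930 in edgeR's quasi-likelihood test. Il6ra had the smallest p of the 10 genes and was the only one with an adjusted p under 0.10, where 2.31% of all tested genes lay.

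Il6st, the gp130 chain that every receptor of the family shares, had 157, 156 and 189 CPM in WT and 193, 372 and 318 CPM in Nr2e3-/- tumors. The groups did not overlap, but Nr2e3-/- replicate 1 was just above the highest WT library. The means were 167 ± 18.6 and 294 ± 92.05 CPM (SD, n = 3 each) and the log2 fold change was 0.81 (SE 0.24, edgeR adjusted p = 0.138).

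Osmr pairs with gp130 to form the receptor for oncostatin M. It had 9.45, 10.4 and 8.22 CPM in WT tumors and 11.5, 52.6 and 36.4 CPM in Nr2e3-/- tumors. Replicates 2 and 3 stood well above WT and replicate 1 only slightly above it. The log2 fold change was 1.85 (SE 0.48, edgeR adjusted p = 0.125), from 9.36 ± 1.10 to 33.5 ± 20.7 CPM (SD, n = 3 each).

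Lifr, which pairs with gp130 as the receptor for leukemia inhibitory factor (LIF), had 261, 282 and 266 CPM in WT and 374, 342 and 343 CPM in Nr2e3-/- tumors. The 3 Nr2e3-/- libraries were close to each other and above WT, with replicate 1 the highest. The difference was small and even, at a log2 fold change of 0.39 (SE 0.10, edgeR adjusted p = 0.127), from 270 ± 10.97 to 353 ± 18.1 CPM (SD, n = 3 each).

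The kinases bound to these receptors differed among themselves. Jak1, the kinase on which gp130 signaling depends most, had 170, 176 and 167 CPM in WT and 197, 292 and 224 CPM in Nr2e3-/- tumors, with no overlap between the groups. Its log2 fold change was 0.47 (SE 0.16, edgeR adjusted p = 0.164). Jak2, which also serves growth hormone and erythropoietin receptors, had 27.7, 25.8 and 29.7 CPM in WT and 23.97, 65.7 and 39.5 CPM in Nr2e3-/- tumors. Nr2e3-/- replicate 1 was below every WT library and the other 2 above, and the log2 fold change was 0.64 (SE 0.33, edgeR adjusted p = 0.293). Tyk2, the kinase shared with interferon and IL-12 receptors, had 26.2, 23.8 and 23.4 CPM in WT and 26.3, 22.4 and 19.95 CPM in Nr2e3-/- tumors. The Tyk2 ranges overlapped and its log2 fold change was -0.09 (SE 0.13, edgeR adjusted p = 0.696).

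Stat3, the transcription factor of the pathway, had 184, 156 and 160 CPM in WT and 213, 367 and 328 CPM in Nr2e3-/- tumors. Every Nr2e3-/- library was above every WT library, replicate 1 by the least. The means were 167 ± 14.9 and 303 ± 79.9 CPM (SD, n = 3 each), a log2 fold change of 0.86 (SE 0.21, edgeR adjusted p = 0.111).

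Socs3, the feedback inhibitor that binds gp130 and the JAK kinases, had 11.7, 9.85 and 10.6 CPM in WT and 5.30, 96.5 and 54.0 CPM in Nr2e3-/- tumors. Replicate 1 was the lowest of all 6 libraries and replicate 2 the highest. The 80 Socs3 counts of replicate 1 give a 95% exact Poisson interval of 4.20 to 6.59 CPM, which covers counting error only and lies under the 8.75 CPM that is the lowest bound among the WT libraries. The log2 fold change of 2.28 (SE 0.82, edgeR adjusted p = 0.180), from 10.7 ± 0.937 to 51.9 ± 45.6 CPM (SD, n = 3 each), therefore averages libraries that lay on opposite sides of WT.

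Ptpn11 encodes SHP2, the phosphatase that binds gp130 at the same site as SOCS3 and links it to the ERK pathway. It had 96.0, 97.1 and 95.7 CPM in WT and 91.6, 111 and 114 CPM in Nr2e3-/- tumors. Replicate 1 lay below WT and the other 2 above, and the log2 fold change was 0.13 (SE 0.11, edgeR adjusted p = 0.512).

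**Figure D1:**
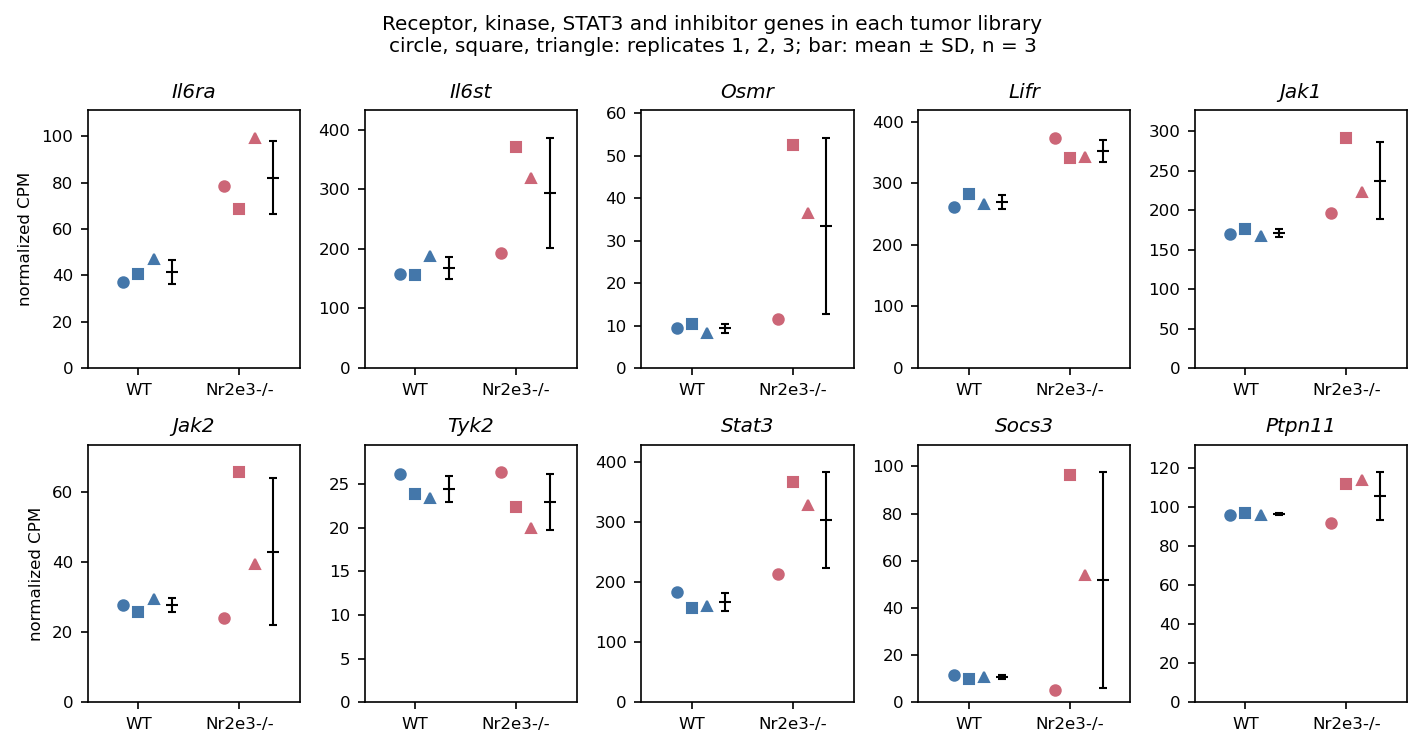
Normalized CPM (vertical axes, linear from 0) of each of the 10 genes in the WT (blue) and Nr2e3-/- (red) libraries, where circle, square and triangle are replicates 1, 2 and 3 and the black bar is the mean ± SD of 3 libraries. Il6ra and Lifr lay above WT in all 3 Nr2e3-/- libraries, while Socs3 was at 5.30 CPM in replicate 1 and 96.5 CPM in replicate 2.

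Read against all genes, the counts were as follows. Of the 10 genes, 0 passed an edgeR adjusted p of 0.05 in either direction, where 0.0958% of the 13572 tested genes did (13 genes). At an unadjusted p under 0.05, 7 of the 10 were higher in Nr2e3-/- tumors (Il6ra, Il6st, Osmr, Lifr, Jak1, Stat3 and Socs3), against 11.8% of all tested genes, and 0 were lower, against 9.72%. For 6 of the 10 the ranges of the groups stood apart, all with Nr2e3-/- higher, against 13.9% of all tested genes that were higher and 12.9% that were lower without overlap. Their log2 fold changes had a median of 0.73, beside 0.01 for all tested genes. The 10 genes were picked with earlier results of these data known, so these counts describe them and are no independent test.

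The other test programs called more genes overall and more of these. DESeq2 called 5 of the 10 at an adjusted p under 0.05 (Il6ra, Il6st, Osmr, Lifr and Stat3), all higher, against 4.93% of its tested genes. Limma-voom with library weights called these 5 and Jak1, against 9.48%. In a two-sided exact permutation test over the 20 assignments of the 6 libraries, the 6 genes without overlap gave p = 0.1, the smallest that 3 against 3 allows, and Jak2, Tyk2, Socs3 and Ptpn11 gave between 0.4 and 0.5.

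Within the Nr2e3-/- group the libraries differed in a way most of the genes shared. Replicate 2 was the highest of its group for Il6st, Osmr, Jak1, Jak2, Stat3 and Socs3, replicate 3 for Il6ra and Ptpn11, and replicate 1 for Lifr and Tyk2. Relative to the WT mean, Socs3 stood at 0.493, 8.99 and 5.03 times in replicates 1, 2 and 3, and Osmr at 1.22, 5.62 and 3.89 times. Stat3 stood at 1.28, 2.20 and 1.96 times and Il6st at 1.15, 2.22 and 1.90 times, so that these 2 kept nearly the same ratio to WT in each library. By contrast, Il6ra stood at 1.89, 1.65 and 2.39 times and Lifr at 1.39, 1.27 and 1.27 times.

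The spread within groups was unequal. The coefficient of variation of the 10 genes ran from 0.747% (Ptpn11) to 12.3% (Il6ra) in WT, with a median of 7.85%. In Nr2e3-/- tumors it ran from 5.13% (Lifr) to 87.9% (Socs3), with a median of 23.5%. It was larger in the Nr2e3-/- group for 10 of the 10 genes, and for 76.1% of all tested genes.

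**Figure D2:**
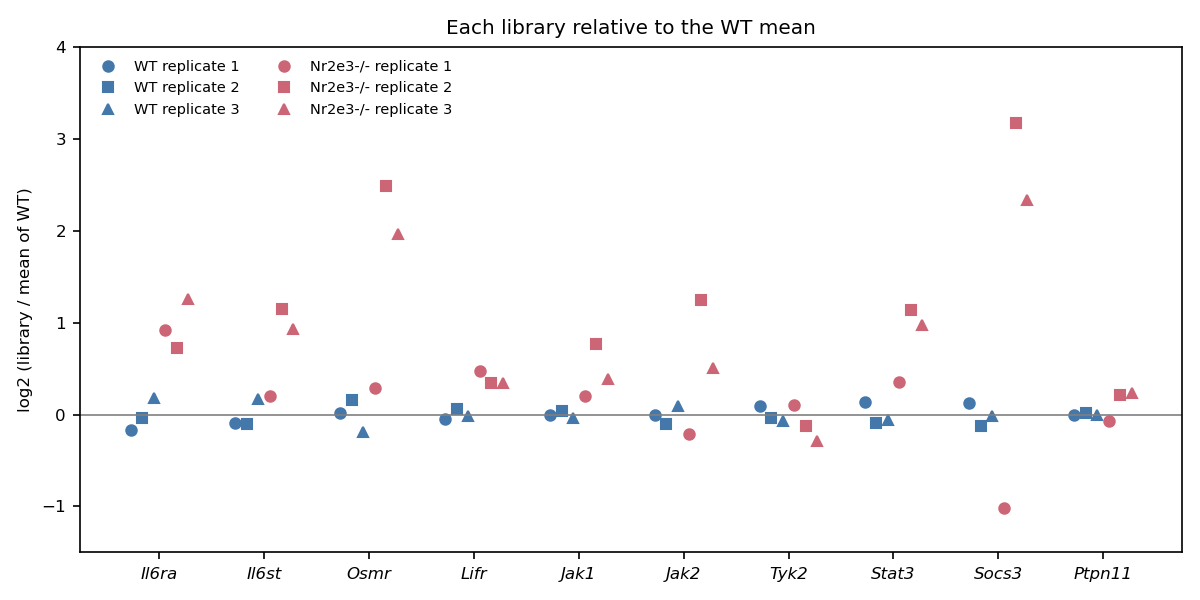
Log2 of each library's CPM over the WT mean (vertical axis) for the 10 genes (horizontal axis), with WT libraries in blue, Nr2e3-/- libraries in red and circle, square and triangle for replicates 1, 2 and 3. Replicates 2 and 3 lie high for Osmr and Socs3 while replicate 1 stays near WT for Osmr and at 0.493 times the WT mean for Socs3.

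Without Nr2e3-/- replicate 1, edgeR called 7 of the 10 genes higher at an adjusted p under 0.05, against 12.2% of the genes then tested. It called none of the 10 lower, against 9.65%. Osmr had a log2 fold change of 2.26 (adjusted p = 0.00179), Socs3 of 2.82 (adjusted p = 0.00193) and Stat3 of 1.07 (adjusted p = 0.00422). Il6st was at 1.05 (adjusted p = 0.00546), Il6ra at 1.02 (adjusted p = 0.0128), Jak2 at 0.94 (adjusted p = 0.0243) and Jak1 at 0.60 (adjusted p = 0.0258). Lifr, at 0.35, just missed the threshold (adjusted p = 0.0505). Leaving out Nr2e3-/- replicate 2 instead lowered Socs3 to 1.48, Osmr to 1.36 and Jak2 to 0.20, and none of the 10 was called. In edgeR the number of the 10 genes called thus changed with replicate 1, the shallowest library, and with all 6 libraries it also changed with the test program, as given above.

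**Figure D3:**
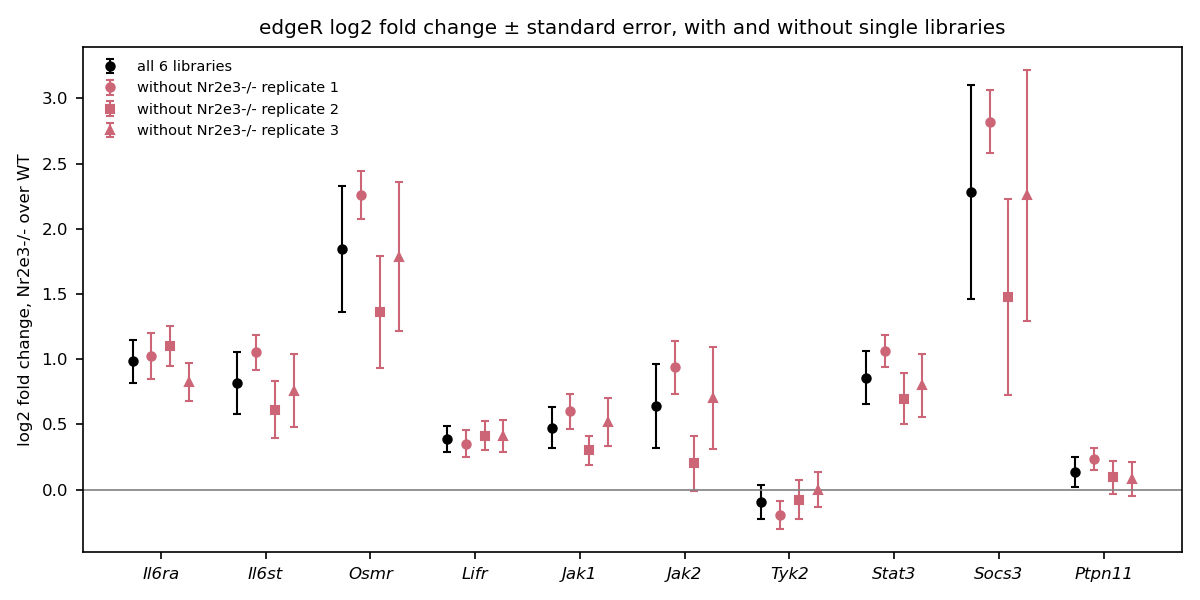
EdgeR log2 fold change of Nr2e3-/- over WT (vertical axis, points with ± SE bars) for the 10 genes with all 6 libraries (black) and without Nr2e3-/- replicate 1, 2 or 3 (red circle, square, triangle). The bars of Socs3 and Osmr shrink and the values rise to 2.82 and 2.26 when replicate 1 is left out.

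Per length of exonic sequence, the 10 genes spanned a wide range of levels. As CPM per kilobase of exons in WT tumors (mean ± SD, n = 3), Lifr was at 25.02 ± 1.02, Jak1 at 23.7 ± 0.653, Stat3 at 17.5 ± 1.57 and Il6st at 15.1 ± 1.68. Ptpn11 followed at 12.8 ± 0.0959, Jak2 at 5.51 ± 0.385, Il6ra at 4.80 ± 0.591, Socs3 at 3.71 ± 0.324, Tyk2 at 3.56 ± 0.217 and Osmr at 0.773 ± 0.0911. The ranges of the neighbours Lifr and Jak1, Stat3 and Il6st, Jak2 and Il6ra, and Socs3 and Tyk2 overlapped, so their order is not set by these data. Osmr was the least abundant of the 10 in WT. In Nr2e3-/- tumors its 0.946, 4.34 and 3.01 CPM per kilobase in replicates 1, 2 and 3 overlapped the 3.84, 3.27 and 2.91 of Tyk2. Socs3 was at 1.83, 33.4 and 18.7 CPM per kilobase in these libraries, a range that overlapped those of Il6st and Ptpn11, so its place in the Nr2e3-/- order is not set. With the longest transcript as the length, Jak1 came first in WT (34.9) with Osmr last (1.70), while in Nr2e3-/- tumors Stat3 came first by its mean (50.1) and Tyk2 last (4.75), below Osmr (6.10). In Nr2e3-/- tumors the ranges of Stat3 and Jak1 overlapped, as did those of Osmr and Tyk2, so these places are not set.

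Ratios between partners, on the same scale of CPM per kilobase, differed between the Nr2e3-/- libraries more than between the WT libraries. Il6st over Il6ra was 2.998 to 3.315 in WT and 1.91, 4.23 and 2.50 in Nr2e3-/- replicates 1, 2 and 3. Lifr over Osmr was 30.4 to 36.4 in WT and 36.7, 7.30 and 10.6 in Nr2e3-/- tumors. Stat3 over its inhibitor Socs3 was 4.57 to 4.82 in WT and 12.2, 1.15 and 1.84 in Nr2e3-/- tumors. In replicates 2 and 3 the balance thus lay toward Osmr and Socs3 and in replicate 1 away from Socs3. In the exact permutation test the group difference of these ratios, with that of Jak1 over Jak2, gave p between 0.4 and 0.9 over the 4 ratios compared.

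The ligands were mostly at the edge of detection. Il6 had at most 0.162 CPM in any library, Il11 at most 0.0768, Osm 0.111 and Il27 0.154, and these were among the 5 of 10 cytokines that were too low to be tested. Of the 5 cytokines of the family that were tested (Lif, Cntf, Ctf1, Clcf1 and Ebi3), 0 passed an unadjusted p of 0.05 in either direction, with a median log2 fold change of -0.30. Over all tested genes, 11.8% passed it as higher and 9.72% as lower. Lif had 1.92, 2.37 and 0.277 CPM in WT and 0.265, 0.817 and 0.379 CPM in Nr2e3-/- tumors, for a log2 fold change of -1.56 (SE 0.77, edgeR unadjusted p = 0.0828) over overlapping ranges. The higher Il6ra, Il6st, Osmr and Lifr levels thus stood beside no tested ligand RNA that passed as higher, and cytokine made elsewhere in the body is not seen in tumor RNA. Among the other receptor chains, Il27ra had a log2 fold change of 0.66 (SE 0.28, edgeR unadjusted p = 0.0492), Il11ra1 of -0.27 (SE 0.20) and Cntfr of -0.23 (SE 0.34).

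Other genes of the signaling layer were described from lists, and no gene of any of these lists passed an edgeR adjusted p of 0.05 with all 6 libraries. At an unadjusted p under 0.05, 11.8% of all tested genes were higher and 9.72% lower, so 1 gene in a list of 7 or 12 is near that share. Of the other 7 JAK and STAT genes, 1 passed an unadjusted p of 0.05, Stat5a at 0.53 (SE 0.21, edgeR adjusted p = 0.211), with a median of -0.04. That median stood near 0 while Stat3 was at 0.86. Of the 7 other SOCS and CIS genes, 0 passed, with a median of 0.11. Of the 7 PIAS proteins and phosphatases, which limit JAK and STAT activity, 2 passed and both were higher, with a median of 0.19. Ptpn1, the phosphatase PTP1B that removes phosphate from JAK2 and TYK2, had 36.7, 36.6 and 30.6 CPM in WT and 38.7, 143 and 130 CPM in Nr2e3-/- tumors, for a log2 fold change of 1.59 (SE 0.44, edgeR adjusted p = 0.130). Like Osmr, Ptpn1 was near WT in replicate 1 and several times higher in replicates 2 and 3. Ptpn2, its close relative TC-PTP, was at 0.98 (SE 0.39, edgeR adjusted p = 0.207). Of the 12 SHP2 adaptors and ERK genes, 1 passed as higher, Grb2 at 0.50 (SE 0.12), and 2 as lower, Gab1 at -0.34 (SE 0.12) and Mapk3 at -0.28 (SE 0.10), with a median of 0.06.

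Many target genes of STAT3 had higher levels in Nr2e3-/- tumors, in edgeR with all 6 libraries by unadjusted p only. Of 16 targets that act in transcription and survival, 10 were higher and 1 lower at an unadjusted p of 0.05, with a median log2 fold change of 0.74. Over all tested genes, 11.8% were higher and 9.72% lower at that threshold. Pim3, a survival kinase, was at 1.49 (SE 0.34, edgeR adjusted p = 0.103), Bcl6, a transcriptional repressor, at 2.01 (SE 0.62, edgeR adjusted p = 0.150), and Vegfa, the angiogenic growth factor, at -0.60 (SE 0.17, edgeR adjusted p = 0.130). The Bcl6 level was 79.3, 11.6 and 47.7 CPM in Nr2e3-/- replicates 1, 2 and 3, so that its highest value was in the library where Socs3 was lowest. The targets had no single order of libraries. Of 28 secreted and membrane targets, which include the acute phase proteins of the liver, 21 were higher and 0 lower at that threshold, with a median of 1.26. Of the list, the serum amyloid genes had the largest values, Saa2 at 5.34 (SE 0.97, edgeR adjusted p = 0.0930) and Saa1 at 4.54 (SE 0.80, edgeR adjusted p = 0.0930). Saa1 had 49.3, 28.0 and 19.9 CPM in WT and 138, 1028 and 1090 CPM in Nr2e3-/- tumors.

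IL-1 and NF-kB signaling acts on many of the same acute phase genes and on Socs3. Of the 14 tested genes of that list, 5 were higher and 0 lower at an unadjusted p of 0.05, with a median log2 fold change of 0.63. The shares over all tested genes were 11.8% higher and 9.72% lower. Cxcl1, a neutrophil attractant, was at 2.38 (SE 0.88, edgeR adjusted p = 0.190) and Nfkb1, an NF-kB subunit, at 1.34 (SE 0.41, edgeR adjusted p = 0.144). By library, the median log2 ratio to the WT mean was 0.20, 0.95 and 0.72 for the 10 pathway genes in Nr2e3-/- replicates 1, 2 and 3. It was 0.09, 1.01 and 0.76 for the first list of STAT3 targets, 0.32, 1.76 and 1.38 for the second, and -0.27, 1.002 and 0.42 for the IL-1 and NF-kB genes. This order of libraries was not particular to these lists, and the neutrophil and macrophage markers given below had it too. Without Nr2e3-/- replicate 1, edgeR called 10 of the first list of STAT3 targets and 23 of the second as higher, together with 8 IL-1 and NF-kB genes, against 12.2% of all genes then tested. Vegfa, at -0.79, was called lower.

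**Figure D4:**
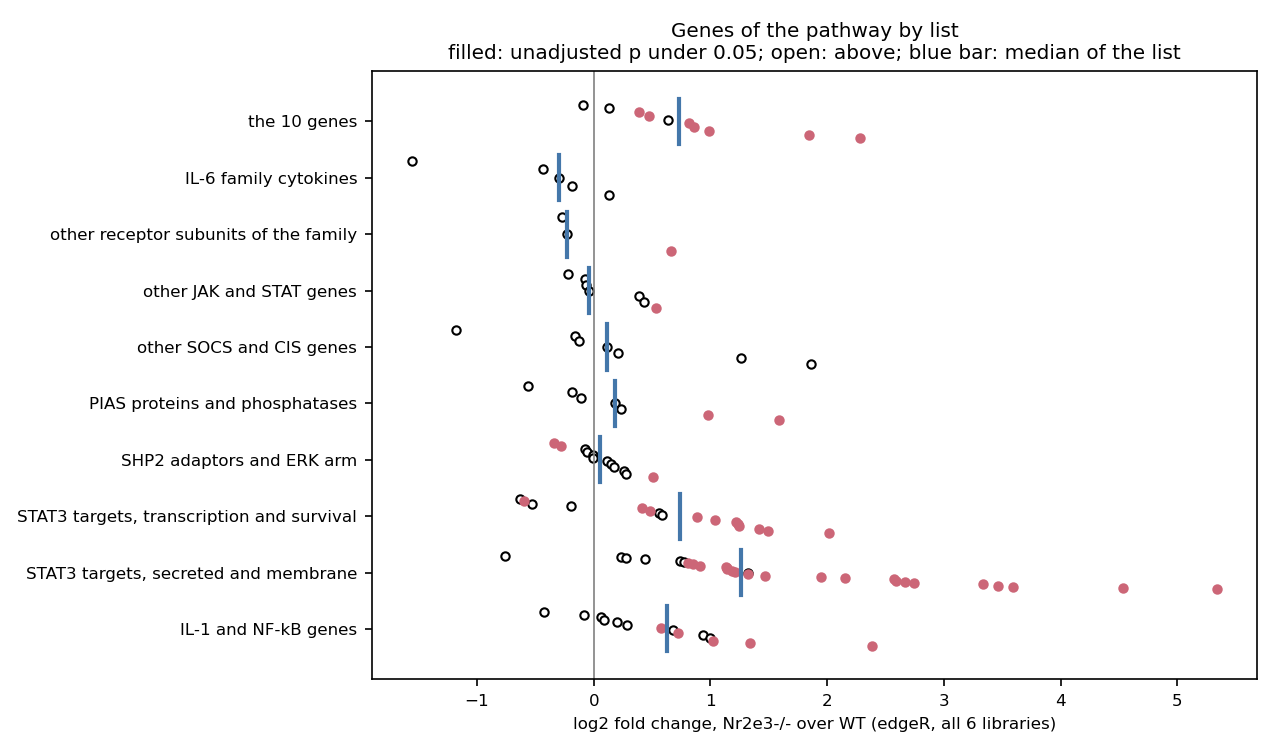
EdgeR log2 fold change of Nr2e3-/- over WT with all 6 libraries (horizontal axis) for each tested gene of the 10 and of the pathway lists (one line of points per list), filled red where the unadjusted p was under 0.05 and open where it was not, with the median of each list as a blue bar. The medians of the 10 genes (0.73) and of the STAT3 target lists (0.74 and 1.26) lie right of 0, and those of the cytokines (-0.30) and other JAK and STAT genes (-0.04) left of it.

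Markers of other cell types moved between libraries as well, and in bulk tumor RNA fewer cells of a type and less RNA per cell cannot be told apart. The 6 measured neutrophil markers of a list of 7 summed to between 3.64 and 6.33 CPM in WT and to 3.44, 30.2 and 18.98 CPM in Nr2e3-/- replicates 1, 2 and 3, and none of the 6 was at 0. The 9 Kupffer cell and macrophage markers, of 9 listed, summed to 280 to 353 CPM in WT and to 261, 605 and 324 CPM in Nr2e3-/- tumors, with none at 0. The 10 T, B and NK cell markers summed to 17.2 to 31.4 CPM in WT and to 13.2, 39.0 and 17.2 CPM, with Ncr1 at 0 in WT replicate 3 and Nr2e3-/- replicate 1. Of 6 bile duct markers, Spp1 made up most of a sum that was 57.3 to 119 CPM in WT and 69.1, 429 and 185 CPM in Nr2e3-/- tumors. The 9 stellate cell and fibroblast markers summed to 359 to 442 CPM in WT and went the other way, to 402, 253 and 221 CPM. The 7 liver endothelial markers summed to 320 to 337 CPM in WT and to 337, 344 and 286 CPM in Nr2e3-/- replicates 1, 2 and 3. The neutrophil, macrophage, lymphoid (T, B and NK) and bile duct sums were thus all highest in Nr2e3-/- replicate 2, the library with the most Osmr, Jak2, Stat3 and Socs3. The endothelial sum was also highest there, but only by little. In that library 5 of the 7 endothelial markers were above every WT library. The other 2, Kdr (44.7 CPM, against 73.5 to 86.9 CPM in WT) and Stab2 (80.2 CPM), were below every one. Of the bile duct markers, only Spp1 and Epcam were above WT there. Krt7 (0.520 CPM) and Sox9 (6.09 CPM) were below every WT library, and Krt19 and Cftr were within the WT range. The part of these cell types in the values of the 10 genes was not tested.

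The genes whose log2 CPM followed that of Stat3 most closely over the 6 libraries, among 7956 tested genes with a mean of at least 10 CPM, were St3gal1 (Pearson r = 0.999), Ibtk (0.998) and Gm16551 (0.998), and 477 genes exceeded 0.95. For Socs3 they were Gclc (0.9995), Fam168b (0.999) and Map4k5 (0.999), with 295 genes over 0.95. These are descriptions over 6 libraries that share the contrast between replicates 2 and 3 and the rest, and many genes followed the same order.

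STAT3 binds DNA at a palindromic element, TTCNNNGAA, that reads the same on both strands, and the sequences around it are shown because Socs3 is the one of the 10 genes that carried it. It was searched on both strands in the 250 bases before the RefSeq transcription start. A match was present in 7.02% of all 32851 promoter windows, and in 7.53% of the 10177 tested genes with a window. Of the 10 pathway genes 1 held it, Socs3, and of the STAT3 targets 8 of the 36 with a window (22.2%). Of these sites, 8 are shown, from RefSeq on GRCm38.p6 and read 5′ to 3′ on the strand of the gene with the matched element in capitals.
Socs3, chr11:117969502-117969530, minus strand: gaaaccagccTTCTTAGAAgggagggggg
Bcl6, chr16:23981353-23981381, minus strand: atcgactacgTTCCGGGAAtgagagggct
Irf1, chr11:53769914-53769942, plus strand: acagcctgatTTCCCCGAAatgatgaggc
Fga, chr3:83025909-83025937, plus strand: aggcccccatTTCCTGGAAtgtagattcc
Fgb, chr3:83050007-83050035, minus strand: gactcaatgaTTCGAGGAAccccctgtgt
Steap4, chr5:7960346-7960374, plus strand: ggttgaactcTTCCCGGAAactttgcttc
Itih4, chr14:30886415-30886443, plus strand: aaacctgcatTTCCGAGAActtgcaccag
Apcs, chr1:172895280-172895304, minus strand: atcttcTTCTAGGAAagcacagggt

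The element lay 154 bases before the RefSeq start of Socs3 and between 51 (Itih4) and 244 (Apcs) bases before those of the others shown. Bcl6 held 3 matches, of which the nearest is shown. The GENCODE gene of Socs3 extends to chr11:117970047 on the minus strand, so the Socs3 site lies inside that gene and not before it. Of the 8 STAT3 targets with a match, 7 had a log2 fold change above 0 and 1, not shown, had one below 0. Over the whole target lists, 12 of 16 and 27 of 28 were above 0, so the matched targets did not differ from their lists in this. Fga and Fgb, the fibrinogen alpha and beta chains, had log2 fold changes of 1.19 (SE 0.29) and 1.15 (SE 0.29), and Steap4, a metalloreductase, of 2.15 (SE 0.47). Apcs, which encodes serum amyloid P, was at 1.32 (SE 0.58, edgeR unadjusted p = 0.0561) and did not pass. A match is a description of the sequence and not a measured binding site, and no match says only that these letters are not in the window.

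In GRCm38 the receptor genes lie at chr3:89864059-89913196 (Il6ra, minus strand), chr13:112464070-112510086 (Il6st, plus), chr15:6813577-6874969 (Osmr, minus) and chr15:7090614-7197489 (Lifr, plus), so that Osmr and Lifr are near each other on chromosome 15. The kinases lie at chr4:101152367-101265282 (Jak1, minus), chr19:29251828-29313080 (Jak2, plus) and chr9:21104068-21131243 (Tyk2, minus). Stat3 lies at chr11:100885098-100939540 (minus), Socs3 at chr11:117966079-117970047 (minus) and Ptpn11 at chr5:121130533-121191397 (minus). Exons of 4 of the 10 overlap those of a gene on the other strand, namely Gm42809 for Il6ra, Raver2 for Jak1, 1700084C06Rik for Tyk2 and Stat5a for Stat3. The strand setting of the counting is not given in the sources used here, so reads of the overlapping parts could not be told apart. Stat5a was at 9.09 ± 0.689 CPM in WT and 13.1 ± 3.47 CPM in Nr2e3-/- tumors (SD, n = 3 each), far under the Stat3 level.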

How the data were processed

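RNA was extracted from mouse liver tumor tissue and sequenced from TruSeq libraries. Per the labels and the study's methods, the authors mapped single-end reads with TopHat on mm10, then ran FeatureCounts to obtain a count per gene. The deposited table holds raw counts. The strand setting, the tool versions and the annotation are not given in the sources used here. A table of normalized values and a table of the authors' own comparison (log2 fold changes and p-values) were not used.

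The labelled genotype, which stands under another field name, set the groups. Counts were tested with edgeR 4.0.16 in R 4.3.3, with filterByExpr (minimum count 10, minimum total 15), TMM normalization and the two-sided quasi-likelihood F test, with Benjamini-Hochberg adjustment over 13572 genes and a threshold of 0.05. All 10 genes passed the filter. The SE is the log2 fold change over the root of F, and CPM are TMM-normalized. Exact permutation tests used log2(CPM + 0.5). Alternatives used DESeq2 1.42.0 and limma 3.58.1. Levels per kilobase used the exon union in GENCODE M21. A script was tested on simulated counts. The markers include Emr1, the older symbol of Adgre1, and Ly6g was not analysed here.

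The 10 genes and all lists were chosen with earlier results of these data known. Named besides the 10 and the family's cytokines and receptors were, from each list, up to 2 genes with the largest increase and up to 2 with the largest decrease, at an unadjusted p under 0.05 and a mean of at least 50 counts in the higher group. The genes with a promoter match and the levels of Saa1, Bcl6, Socs2 and Cish in each library were added after their values were seen. A few list genes and sites are not reported here.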

Additional observations from a re-analysis of the deposited data

How the results depend on the processing

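Of 130 values of the 10 genes under the alternatives, 112 stayed on the same side of the threshold in the same direction, 18 newly passed it and 0 reversed. None passed with edgeR and all 6 libraries, so none could be lost. Genes called numbered 13 over all genes with edgeR, 13 with RLE and 8 with upper quartile scaling, 1096 with DESeq2, 2360 with limma-voom and library weights, 70 without a filter beyond 1 count, and 7 with at least 10 counts in every library. DESeq2 called Il6ra (0.995), Il6st (0.82), Osmr (1.85), Lifr (0.40) and Stat3 (0.87), 5 of the 10. It also called 1 of the PIAS proteins and phosphatases, 1 of the SHP2 and ERK genes, 7 and 16 of the 2 lists of STAT3 targets, and 4 IL-1 and NF-kB genes. All were higher except 1 of the 7 targets. Over all genes, DESeq2 called 675 higher (4.93% of those it tested) and 421 lower. Limma-voom called Il6ra (1.13), Il6st (0.89), Osmr (1.86), Lifr (0.36), Jak1 (0.43) and Stat3 (0.92), 6 of the 10, with 2 other JAK and STAT genes, 3, 1, 9, 19 and 5 in those lists. All were higher except 1 of the 3 PIAS proteins and phosphatases and 1 of the 9 targets. Over all genes, limma-voom called 1287 higher (9.48%) and 1073 lower. Without a filter beyond 1 count 2 secreted STAT3 targets were called. The cause was not tested.

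Leaving out each library in turn, the log2 fold change ran from 0.83 to 1.10 for Il6ra, 0.61 to 1.05 for Il6st, 1.36 to 2.26 for Osmr, 0.35 to 0.42 for Lifr, 0.30 to 0.60 for Jak1, 0.20 to 0.94 for Jak2, -0.20 to -0.0019 for Tyk2, 0.70 to 1.07 for Stat3, 1.48 to 2.82 for Socs3 and 0.08 to 0.23 for Ptpn11. Genes called ran from 0 to 7 of the 10, 0 to 1 cytokine, other receptor chain or SHP2 and ERK gene, 0 to 2 other JAK and STAT or other SOCS genes, 0 to 3 PIAS proteins and phosphatases, 0 to 11 and 0 to 23 STAT3 targets and 0 to 8 IL-1 and NF-kB genes, each highest without Nr2e3-/- replicate 1. The cytokine and the receptor chain called there, Ctf1 (-0.70) and Il11ra1 (-0.51), were both lower. Over all genes, 3022 were called without that library, 18 without Nr2e3-/- replicate 2, 2 without WT replicate 2, and 0 without each of the others.

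With the replicate number as a block, 0 of the 10 and 0 genes overall were called, with Il6ra at 0.97 (edgeR adjusted p = 0.122), Osmr at 1.63 and Socs3 at 1.70. Deviations of same-numbered libraries from their group means correlated at -0.077, 0.221 and 0.023, and not every library correlated best with its own number. Deviations within a group sum to 0, so these correlations cannot settle whether the numbers pair the samples.

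With 3 libraries a group and the Nr2e3-/- group spread as it was, edgeR on all 6 libraries resolved none of the 10 differences. That held at an adjusted p of 0.05 for the small difference of Ptpn11 (log2 fold change 0.13) and for the larger ones of Osmr (1.85) and Socs3 (2.28).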

Other observations

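Socs2 and Cish, feedback genes best known as STAT5 targets, had the same order of libraries within each group but differed in their level against WT. Socs2 had 13.0, 19.7 and 36.3 CPM in WT and 7.68, 174 and 68.9 CPM in Nr2e3-/- replicates 1, 2 and 3, a log2 fold change of 1.86 (edgeR unadjusted p = 0.0820). Cish had 31.8, 35.7 and 53.1 CPM in WT and 2.38, 35.9 and 14.1 CPM in Nr2e3-/- tumors, for a log2 fold change of -1.18 (edgeR unadjusted p = 0.155). Nr2e3-/- replicate 1 was thus the lowest of the 6 libraries for Socs2, Cish and Socs3, and also for Myc (1.19 CPM, against 6.26 to 8.39 CPM in WT). These genes were chosen after their values were seen. Over all 13572 tested genes, Nr2e3-/- replicate 1 lay below every WT library for 33.1% and above every one for 32.7%.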
